A study of Mus musculus with 6 samples.

Results

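The rows described here are 5 miRNA genes, Mir330, Mir1933, Mir5100, Mir3572 and Mir8091, that were chosen by name because their low to moderate counts were higher in exosomes released from ceramide (Cer) treated cells. They are 5 of the 1973 rows of the count table, and all 5 were among the 418 rows with enough counts to be tested. HN9.10e is an immortalized mouse embryonic hippocampal line of wild type genotype, grown in medium with fetal bovine serum. Exosomes were isolated after 48 h from the medium of untreated cells (control, 3 libraries) or of cells given 100 nM Cer (C6-Cer in the study's methods, 3 libraries), and their small RNA was sequenced. The library totals were 972344 to 1393282 counts in control and 800810 to 2760015 in Cer exosomes. A row stands for a whole hairpin, and its count does not separate a 5p from a 3p miRNA. In the 6 libraries the 15 rows of neuronal miRNAs in the table summed to between 20130 and 25070 CPM (the usual abundance unit, a count relative to the normalized library size) and the 7 rows of serum and blood miRNAs to between 400.2 and 449.3 CPM, with the groups overlapping in both sums and no row at 0. Such sums follow their most abundant rows. Taken singly, 5 of the 7 serum and blood rows and 4 of the 15 neuronal rows were higher in Cer exosomes. Of the 413 tested rows besides the 5 described here, 201 were higher.

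A miRNA is usually cut from a long primary transcript as a hairpin by Drosha, and then trimmed by Dicer to a short duplex, of which a strand enters Argonaute and guides it to targets through its seed, bases 2 to 8. Many hairpins lie in introns of protein-coding genes and are transcribed with that host. Mirtrons skip Drosha because an end of the hairpin is made by splicing of a short intron. Fragments of other small RNAs, such as tRNAs, can also be counted on a miRNA row when the sequences match.

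The mature sequences are shown because the seed defines what each miRNA could pair with, and because their ends place them on the host genes. They come from RefSeq (GRCm38.p6), which held all 5 hairpins, and the capitals mark the seed:
mmu-miR-330-5p: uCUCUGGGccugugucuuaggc
mmu-miR-330-3p: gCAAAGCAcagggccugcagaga
mmu-miR-1933-5p: aGUCAUGGuguucggucuuaguuu
mmu-miR-1933-3p: cCAGGACCaucagugugacuau
mmu-miR-5100: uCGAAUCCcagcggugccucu
mmu-miR-3572-5p: uGGGGAACagggcaagguggac
mmu-miR-3572-3p: uACACUUGuccuucuuuccccag
mmu-miR-8091: aGGAGUGAgugguaagcuggug
The 8 mature sequences had 8 different seeds, so the rows are not a seed family. Among the 1738 mature sequences of the table, miR-330-5p shared its seed with miR-326-3p and miR-330-3p with miR-6240, and the 6 others shared theirs with none. The row Mir326 had a mean of 63.2 CPM in control and 53.1 CPM in Cer exosomes (log2 fold change -0.24), and Mir6240 had 281 and 273 CPM (-0.04). Neither of these 2 rows passed the thresholds described below, and for Mir6240 the 2 means were nearly equal. None of the 8 sequences occurred in another hairpin of the RefSeq table.

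The hairpins lie in different places of the genome, and no other row of the count table lies inside any of the host genes (coordinates in GRCm38, annotation of GENCODE M21). The Mir330 hairpin (ENSMUSG00000065543) is on the plus strand of chromosome 7, from 19181465 to 19181562, inside Eml2, which encodes a microtubule-associated protein. In the 5 protein-coding Eml2 transcripts that span it the hairpin is intronic, but 84 of its 98 bases belong to exon 1 of a noncoding Eml2 transcript, which ends at 19181548, the base after the last base of miR-330-3p. The Mir1933 hairpin (ENSMUSG00000089555) is on the minus strand of chromosome 11, from 21344588 to 21344675, in intron 3 of Ugp2, the enzyme that makes UDP-glucose. The intron is 19538 bases long. The Mir5100 hairpin (ENSMUSG00000092734) is on the plus strand of chromosome 11, from 60728663 to 60728726, in intron 1 of Mief2, a receptor for the mitochondrial fission protein Drp1.

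The Mir3572 hairpin (ENSMUSG00000093290) is on the plus strand of chromosome 7, from 3655962 to 3656047, at the border of intron 11 and exon 12 of the protein-coding transcript of Cnot3. Cnot3 is a subunit of the CCR4-NOT complex, which shortens poly(A) tails. The intron has only 80 bases, from 3655953 to 3656032. The last base of miR-3572-3p is the last base of the intron, at the splice acceptor, as at the 3′ end of a mirtron. The 5′ side differs, since miR-3572-5p starts at 3655970, inside the intron and not at the splice donor. The remaining 15 bases of the hairpin are exonic, and a retained-intron transcript of Cnot3 covers the whole hairpin with an exon. The Mir8091 hairpin (ENSMUSG00000098286), on the plus strand of chromosome 19 from 41588651 to 41588789, lies outside the genes of GENCODE M21. The RefSeq gene Lcor, a nuclear receptor corepressor, spans it, whereas the GENCODE model of Lcor ends 26390 bp before it.

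Hairpins are shown where a part of their sequence bears on what the row could count. In Mir3572 the capitals mark exon 12 of Cnot3, in Mir330 exon 1 of the noncoding Eml2 transcript, and in Mir5100 the letters of a tRNA box B, the internal promoter element that becomes the T arm of the tRNA:
Mir3572: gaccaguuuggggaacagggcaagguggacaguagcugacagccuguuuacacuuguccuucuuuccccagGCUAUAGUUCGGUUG
Mir330: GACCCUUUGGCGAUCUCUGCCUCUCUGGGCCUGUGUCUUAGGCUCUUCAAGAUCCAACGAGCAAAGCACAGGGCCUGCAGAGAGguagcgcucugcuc
Mir5100: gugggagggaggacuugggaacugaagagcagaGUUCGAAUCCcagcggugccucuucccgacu
The search, on both strands, used GUUC followed by NAN and then UCC, where N is any base. It matched the sense strand of 2 of the 1005 RefSeq hairpins (0.199%), Mir5100 and Mir7001, and the reverse strand of 2. In Mir5100 the match runs from base 34 to base 43 of the hairpin, and miR-5100 starts at base 36, inside it. No tRNA gene of the RefSeq table overlaps the Mir5100 hairpin. A match is a description of the letters, and whether reads of a tRNA were counted on the row was not tested. The Mir7001 row was below the filter on counts, with 1, 1 and 2 counts in control and 1, 0 and 12 in Cer libraries.

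**Figure D1:**
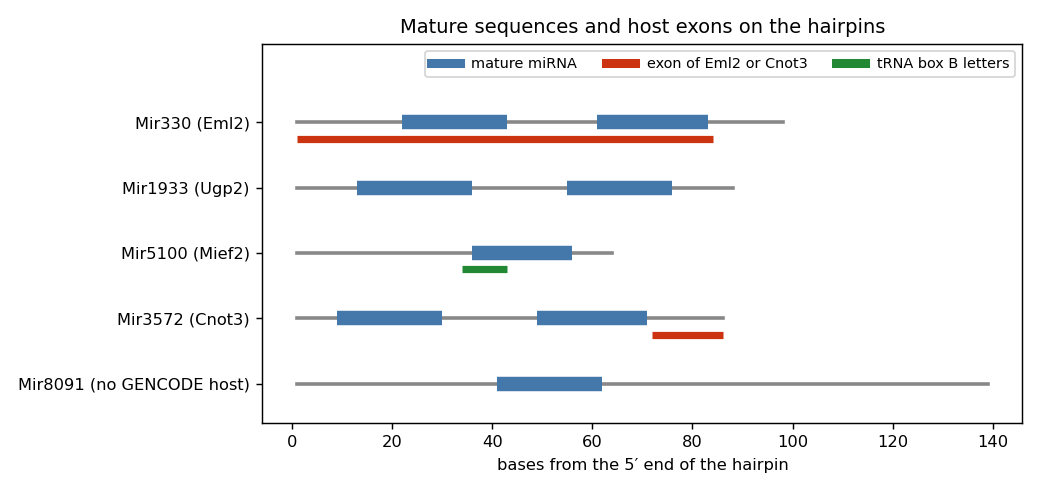
Hairpins of the 5 rows drawn from their 5′ end in bases, with mature miRNAs as thick blue bars, the exon of Eml2 or Cnot3 as red bars and the tRNA box B letters as a green bar. The 3p miRNA of Mir3572 stops at base 71, where the exon begins, and that of Mir330 stops at base 83, before the exon of Eml2 ends at base 84.

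Predicted folds differed among the rows. By RNAfold the minimum free energy per base was -0.48 kcal/mol for Mir3572, -0.43 for Mir330, -0.39 for Mir5100, -0.35 for Mir1933 and -0.34 for Mir8091, against a median of -0.41 over the 1005 RefSeq hairpins. Mir3572 and Mir330 were more stable per base than 79.8% and 62.7% of them, and Mir8091 than 26.3%. Mir8091, the longest at 139 bases, folded into 3 hairpin loops, and each of the others into 1. The share of G and C lay between 44.6% in Mir8091 and 59.4% in Mir5100, around the median of 51.7%.

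Mir330 was the only row of moderate level. Its counts were 191, 264 and 337 in control and 184, 944 and 1189 in Cer replicates 1, 2 and 3. Scaled by TMM (trimmed mean of M values), these were 191, 188 and 247 CPM in control and 239, 358 and 506 CPM in Cer exosomes. The means were 208 ± 33.2 CPM and 368 ± 134 CPM (SD, n = 3 each), a fitted log2 fold change of 0.83 (standard error 0.27). The groups overlapped, because Cer replicate 1 lay below control replicate 3. Cer replicates 2 and 3 were above every control library. They had the largest totals, and their labels carry lane number 2, which no control label does. With lane number as a term in the fit the log2 fold change of Mir330 was 0.33 (standard error 0.35). The labels name no sequencing run, so libraries with the same lane number need not have shared a run. The part of depth in the level of Mir330 was not tested.

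The other rows were rare, with 94 to 157 counts over all libraries, against 3109 for Mir330. Mir1933 had 9, 14 and 12 counts in control and 14, 57 and 51 in Cer exosomes. This gave 8.98, 9.95 and 8.78 CPM, and 18.2, 21.6 and 21.7 CPM, with means of 9.24 ± 0.627 and 20.5 ± 2.00 CPM (SD, n = 3 each). All Cer libraries of Mir1933 were above all control libraries, and its log2 fold change of 1.16 (standard error 0.17) was the largest of the 5 rows and ranked 8 among the 418. Its hairpin has no cluster partner in the table, the nearest other row being 219886 bp away.

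Mir5100, the rarest, had 6, 11 and 7 counts in control and 10, 31 and 29 in Cer exosomes. In CPM these were 5.99, 7.82 and 5.12, and 13.0, 11.7 and 12.3, with means of 6.31 ± 1.38 and 12.4 ± 0.626 (SD, n = 3 each). The groups did not overlap, and the log2 fold change of Mir5100 was 0.94 (standard error 0.22). The filter asks for 7.39 CPM in at least 3 libraries, which Mir5100 met in 3 Cer libraries and 1 control library. It thus passed only through the group in which it was high, while the 4 other rows met the minimum in every library.

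Mir3572 had 9, 13 and 13 counts in control and 13, 36 and 50 in Cer exosomes. The CPM were 8.98, 9.24 and 9.51, and 16.9, 13.6 and 21.3, with means of 9.25 ± 0.266 and 17.3 ± 3.84 (SD, n = 3 each). Control libraries were nearly equal and Cer libraries were apart from each other but above them (log2 fold change 0.89, standard error 0.24). Mir8091 had 10, 15 and 16 counts in control and 14, 47 and 39 in Cer exosomes, or 9.98, 10.7 and 11.7 CPM and 18.2, 17.8 and 16.6 CPM. Its means were 10.8 ± 0.871 and 17.5 ± 0.827 CPM (SD, n = 3 each), with no overlap and the smallest log2 fold change, 0.68 (standard error 0.17).

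**Figure D2:**
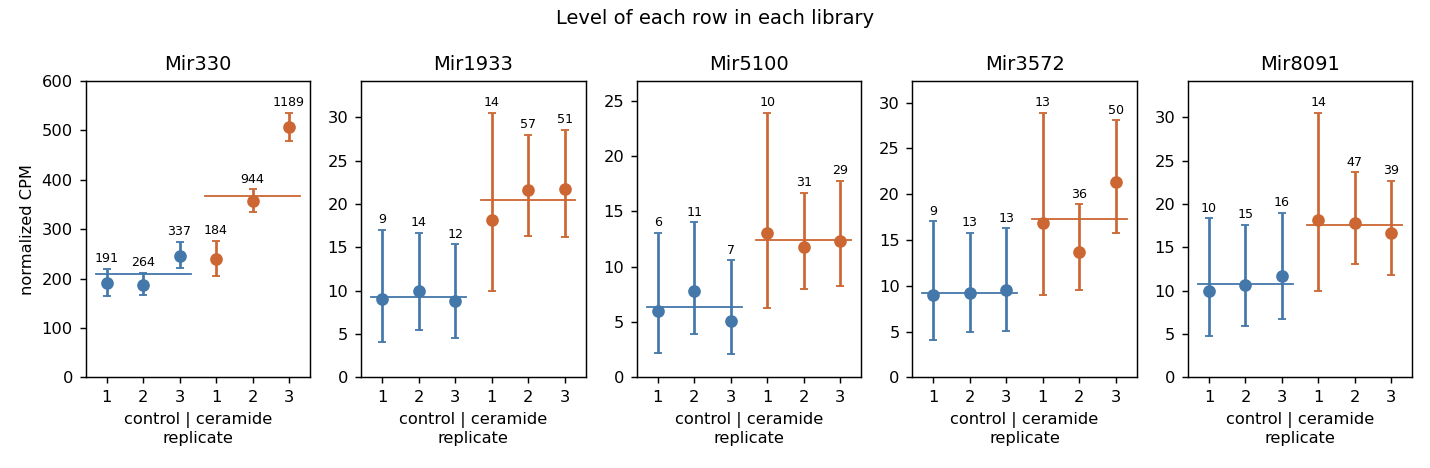
Normalized CPM of each row in each library, with the raw count above each point, exact 95% Poisson intervals as bars (counting error only) and group means as lines, control in blue and Cer in orange. Intervals of single libraries overlap between groups in the 4 rare rows even though the points do not, and Mir330 is above every control library only in Cer replicates 2 and 3.

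Ordered by level per length, in CPM per 100 bases of hairpin, Mir330 stood at 213 in control, followed by Mir3572 at 10.8, Mir1933 at 10.5, Mir5100 at 9.86 and Mir8091 at 7.76. In Cer exosomes the order was Mir330 at 375, Mir1933 at 23.3, Mir3572 at 20.1, Mir5100 at 19.3 and Mir8091 at 12.6. The mature sequences have 21 to 24 bases whatever the hairpin length, so this division need not reflect how reads arise. By mean CPM without it, Mir8091 was the highest rare row in control, at 10.8, and Mir5100 the lowest, at 6.31. In Cer exosomes Mir1933 was the highest of them at 20.5 CPM, then Mir8091 at 17.5, Mir3572 at 17.3 and Mir5100 at 12.4. The order of the 4 rare rows was not tested in either group. Per length, the levels of Mir1933, Mir3572 and Mir5100 lay close together for such counts. Behind a level lay 24 to 41 counts in control and 70 to 122 in Cer exosomes. By mean CPM the 5 rows ranked 164, 344, 389, 358 and 351 of all rows, in the order Mir330, Mir1933, Mir5100, Mir3572 and Mir8091. Together they held between 0.0228% and 0.0293% of the counts of a control library and between 0.0293% and 0.0578% of those of a Cer library. A CPM is a share of the counted RNA, so a higher value cannot be told apart from less of the other miRNAs.

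The rare rows rest on few counts. The 6 counts of Mir5100 in control replicate 1 have an exact 95% Poisson interval of 2.20 to 13.0 CPM, which contains the Cer level of that row. Pooled over 3 libraries, the intervals were 4.07 to 9.46 CPM in control and 9.48 to 15.4 CPM in Cer exosomes for Mir5100, and 6.46 to 12.9 and 17.6 to 25.3 CPM for Mir1933. For Mir3572 they were 6.46 to 12.9 and 14.0 to 20.9 CPM, and for Mir8091 they overlapped, at 7.79 to 14.7 and 14.1 to 21.1 CPM. Such intervals cover counting error only, and the handling of the kit's molecular identifiers is not given in the sources used here, so it is open whether reads or molecules were counted.

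Replicates of the rare rows lay closer together than counting error alone would put them, except those of Mir3572 in Cer exosomes. The SD over libraries divided by the SD expected from counting was 0.23 in control and 0.52 in Cer exosomes for Mir1933, 0.61 and 0.21 for Mir5100, and 0.29 and 0.24 for Mir8091. For Mir3572 it was 0.10 in control and 1.11 in Cer exosomes. Over the 413 other rows tested the median was 1.51 in control and 1.93 in Cer exosomes. Of them 76 (18.4%) were under 1 in both groups, as Mir1933, Mir5100 and Mir8091 were. These 413 rows were not matched for level and include abundant ones, such as Mirlet7i, with ratios of 29.1 and 31.7. The share among rows as rare as these was not counted, so 18.4% does not show how unusual their spread is. Near their level ratios lay on both sides of 1, at 0.43 and 0.57 for Mir3066 and 2.49 and 2.98 for Mir7033. Mir330 stood above 1, at 2.54 in control and 7.97 in Cer exosomes. A small spread lowers the standard error of the same contrast for which the rows were chosen, so these ratios describe the rows and support nothing. Counting alone, from the pooled counts of each group, gives a standard error of the log2 fold change of 0.28 for Mir1933 and for Mir3572, 0.34 for Mir5100 and 0.27 for Mir8091. The fitted standard errors of these 4 rows, 0.17 to 0.24, were all smaller than that. For Mir330 counting alone gives 0.059 against the fitted 0.27.

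**Figure D3:**
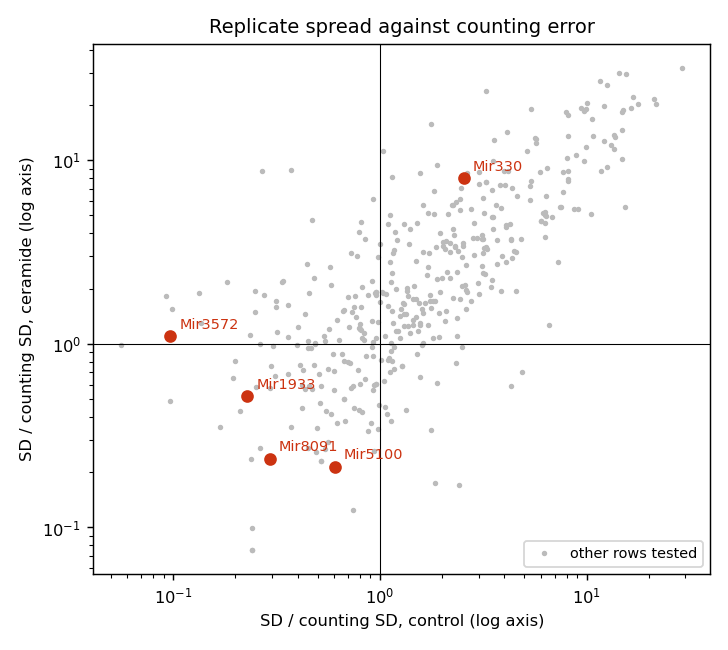
Each point is a row tested, placed by its SD over 3 libraries divided by the SD that counting error gives, control on the horizontal and Cer on the vertical log axis, with lines at 1. Mir1933, Mir5100 and Mir8091 lie under 1 on both axes, Mir3572 only in control, and Mir330 at 2.54 and 7.97.

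In edgeR's quasi-likelihood fit, 4 of the 5 rows passed both thresholds of the study, and Mir330 did not. The thresholds are an adjusted p (Benjamini-Hochberg) of 0.05 or less and a log2 fold change of 0.6 or more in size. The study applied them with DESeq2, not edgeR. Its own list holds Mir330 as up-regulated and none of the other 4 rows. Over all rows tested 11.5% passed in either direction, 3.11% as higher and 8.37% as lower in Cer exosomes. These are 48 rows, 13 higher and 35 lower, and with the replicate number as a block they were 87, 38 higher and 49 lower. All 3 Cer libraries lay above all 3 control libraries in the same 4 rows, as in 14.1% of the rows tested. The rows were chosen for being higher with Cer, so nothing is read from these counts and no p is given for a row.

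The calls turned on the tool and on the scaling. With upper-quartile factors in edgeR all 5 rows passed, and with library size alone only Mir1933 and Mir5100. With DESeq2's Wald test, Mir330 was the only row of the 5 that passed, and the 4 rare rows did not. The log2 fold changes hardly moved, from 0.83 to 0.86 for Mir330 and from 1.16 to 1.19 for Mir1933. The standard errors did, from 0.17 to 0.52 for Mir1933 and for Mir8091, from 0.22 to 0.64 for Mir5100 and from 0.24 to 0.54 for Mir3572, while that of Mir330 was 0.27 with edgeR and 0.25 with DESeq2. With edgeR after leaving out a library, Mir1933 passed in each of the 6 fits, Mir3572 in the fit without Cer replicate 2, Mir330 in the fit without Cer replicate 1, and Mir5100 and Mir8091 in none. The number passing was 1 without control replicate 1, 2 or 3 or Cer replicate 3, and 2 without Cer replicate 1 or 2. With the replicate number as a block all 5 passed.

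**Figure D4:**
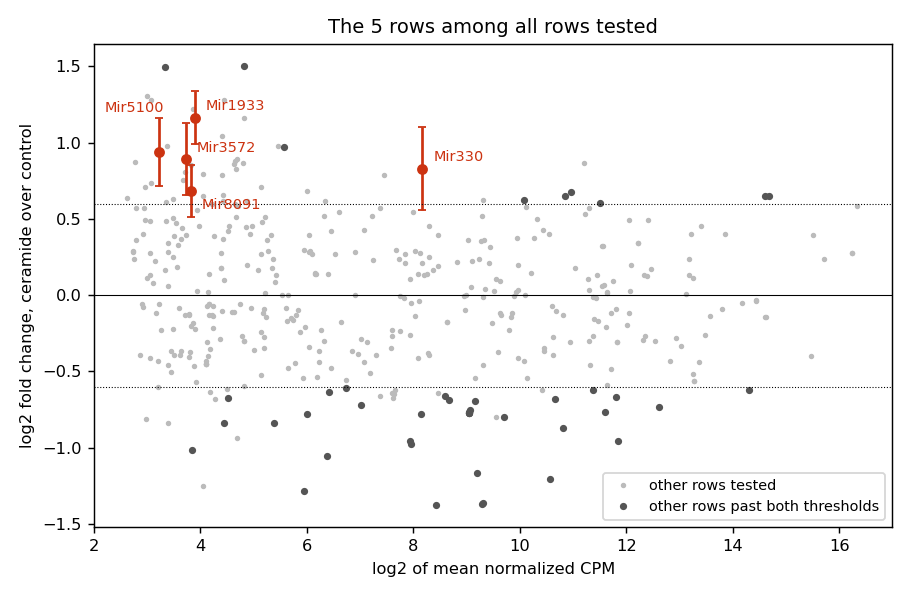
Log2 fold change (Cer over control) against the log2 of the mean normalized CPM for the 418 rows tested, with the 5 rows in red with standard errors, other rows past both thresholds in dark grey and dotted lines at an absolute log2 fold change of 0.6. The 4 rare rows sit at the left edge with log2 fold changes of 0.68 to 1.16, and Mir330 at 0.83 in the middle of the range of levels.

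Libraries with the same replicate number tended to deviate together, so the same values are also given as the ratio of Cer to control within a number. For Mir330 the ratio of CPM was 1.25 in replicate 1, 1.90 in replicate 2 and 2.05 in replicate 3. For Mir1933 it was 2.03, 2.17 and 2.47, the only row with every ratio above 2. Mir5100 gave 2.17, 1.50 and 2.41, Mir3572 gave 1.88, 1.48 and 2.24, and Mir8091 gave 1.82, 1.67 and 1.42. All 15 ratios were above 1. The rows were chosen for being higher with Cer in these same libraries, so the ratios only describe them. In the 4 rare rows, where the groups did not overlap, no ratio could have been below 1. Both libraries of replicate 1 carry lane number 1 in their labels, the only lane number found in both conditions, although they also carry the same sample number, and whether they shared a run is not given. In them Mir330 showed the least difference of the 5 rows while the 4 rare rows differed by 1.82 to 2.17 times. The 4 rare rows in these libraries rest on 6 to 14 counts each.

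**Figure D5:**
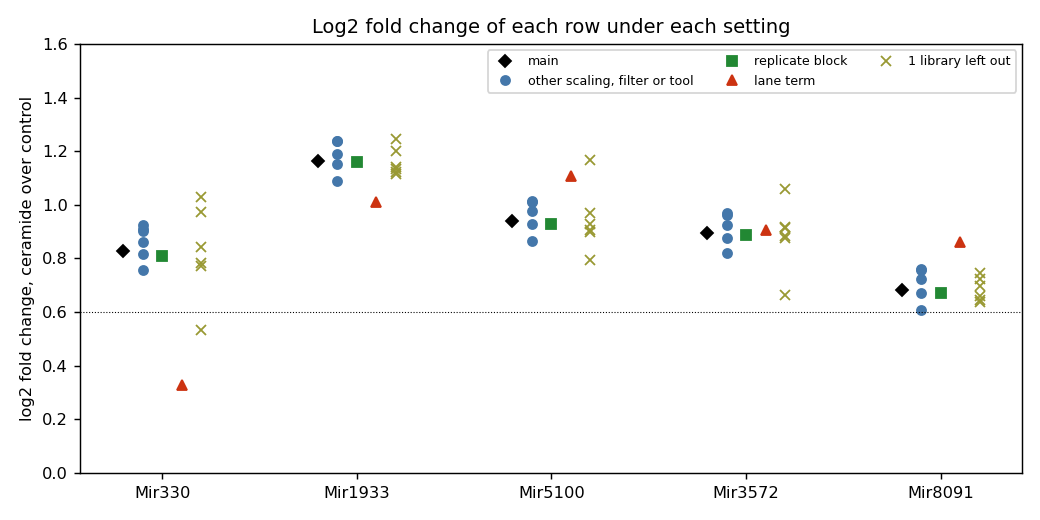
Log2 fold change (Cer over control) of each row with all libraries (black), other scalings, filters or tools (blue), the replicate block (green), a lane-number term (red) and 1 library left out (crosses), with a dotted line at 0.6. Every value is above 0. Mir330 ranges from 0.33 with the lane-number term to 1.03 without Cer replicate 1, while Mir1933 stays between 1.01 and 1.25.

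Over the 6 libraries the 4 rare rows followed each other, with Pearson's r of log2 CPM between 0.87 and 0.95 for their pairs, and Mir330 followed them less closely, with r between 0.61 and 0.82. Since all 5 were chosen to be higher in Cer exosomes, and 6 libraries in 2 groups carry little beyond the group difference, these values only describe. The rows most like Mir330 were Mir6910 (r = 0.99) and Mir6945 (r = 0.98), which also had their highest levels with Cer, with means of 13.1 and 30.6 CPM for Mir6910 and 17.8 and 38.8 CPM for Mir6945. Mir1933 was most like Gm25927 (r = 0.98), whose hairpin lies antisense over let-7e, and Mirlet7b (r = 0.97). Mir8091 was most like Mirlet7a-1 and Gm25927 (r = 0.99 each). Mir5100 was most like Mir137 and Mirlet7b (r = 0.96 each), and Mir3572 most like Mir101b (r = 0.95) and Mir3102 (r = 0.94). The let-7 rows among these are far more abundant, Mirlet7b with means of 65732 CPM in control and 98603 CPM in Cer exosomes.

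The classes to which the rows belong by name and place were counted without the 5 rows. Of the 91 other tested rows with a miRNA number of 1000 or more, where Mir1933, Mir5100, Mir3572 and Mir8091 belong, 2 passed as higher, Mir6903 and Mir3102, and none as lower, against 9 higher and 35 lower of all 413 other rows tested. With the replicate block 20 of the 91 passed as higher and 2 as lower, against 33 and 49 of the 413. The median log2 fold change of the 91 was 0.33 and 64 were above 0, against a median of -0.01 and 201 of 413 above 0 over all other rows tested. Single libraries moved this median, to 0.04 with 52 of 89 above 0 without Cer replicate 3 and to 0.63 without control replicate 3, and with a lane-number term it was 0.12 with 52 of 91 above 0. Without the filter on counts 58.9% of the rows with such a number had a higher mean CPM in Cer exosomes, against 54.6% of all rows with a count. Of the 283 tested rows with a lower number, like Mir330, none passed as higher and 31 as lower, with a median of -0.14, and with the block 5 passed as higher and 43 as lower. By place on the same strand, 4 of 101 rows in an exon passed as higher and 8 as lower, 3 of 187 in an intron as higher and 11 as lower, and 2 of 125 outside genes as higher and 16 as lower. The medians were 0.00, 0.06 and -0.10. With the block the counts were 9 and 12 in exons, 20 and 16 in introns, and 4 and 21 outside genes. No difference between these places was tested. None of the 7 tested serum and blood rows passed (median 0.39), and of the 15 neuronal rows none passed as higher and 3 as lower (median -0.37). All 3 Cer libraries lay above all 3 control libraries in 3 of the 7 and in 1 of the 15, against 55 of the 413. The same held in 5 of the 91 rows with a number of 1000 or more and in 36 of the 283 with a lower number.

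Rows with a mature end at a splice acceptor, the feature of Mir3572, were counted after the values had been seen. Of 25 other tested rows with an end exactly there none passed, and 5 passed as higher with the replicate block. All 3 Cer libraries lay above all 3 control libraries in 0 of the 25, against 55 of the 413 other rows tested. Of the 25 rows 24 had a log2 fold change above 0, with a median of 0.52, and Gm27740 and Gm27775, both of the list, had identical counts. With an end within 1 base of the acceptor there were 32 rows, of which Mir3102 passed as higher and 31 were above 0, with a median of 0.56. Of the 25 rows with an exact end, 24 or 25 were above 0 under the other scalings. The size moved with the third replicates. The median was 0.13 without Cer replicate 3, with 18 of 23 rows above 0, and 0.96 without control replicate 3, and with a lane-number term 17 of 25 were above 0 with a median of 0.16. Without the filter on counts, 98 of the 132 rows of this kind with a count (74.2%) had a higher mean CPM in Cer exosomes, against 54.6% of all 1053 rows with a count. Mir3572 itself had its highest level in Cer replicate 3, at 21.3 CPM, and its log2 fold change was 0.66 without that library.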

How the data were processed

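The authors demultiplexed the reads, removed adapters with Cutadapt 1.15 (minimum length 15), aligned them to GRCm38 with STAR 2.5.3a, assigned them to GENCODE miRNA genes and deposited raw counts per gene. How strand, multi-mapping reads and molecular identifiers were treated, and which GENCODE release was used, is not given in the sources used here. Names came from GENCODE M21, which matched 1894 of 1973 rows.

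Counts were scaled with TMM, filtered with filterByExpr (418 rows) and tested with edgeR 4.0.16 (quasi-likelihood, condition only, R 4.3.3) over all rows. DESeq2, which the study used, was an alternative here (version 1.42.0). The standard error is the log2 fold change divided by the root of the F statistic. The procedure was also run on simulated counts with the same dispersion in every row, unlike the data here, and nothing about the 5 rows is read from that run. The 5 rows and the lists were chosen with earlier results of these data known. The text names these rows, their hosts, rows with the same seed and, for each, the 2 rows with the highest correlation of log2 CPM (prior count 2). The rows of lists named as called, Mir6903 and Mir3102, and Mir7001 were named after their values were seen. Log2 CPM here was computed from the deposited counts. The study calls the libraries biological replicates and performed the experiment in triplicate, while the labels do not tie libraries to cultures. The limit of 1 base at splice acceptors was added after the data had been seen.

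Replicate numbers come from the sample titles. Deviations from group means correlated across rows at 0.59, 0.43 and 0.75 for libraries with the same number, so the numbers were treated as pairing them. The main fit has no block, and counts that the block moves are given beside it. Lane numbers come from the sample labels, which name no run.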

Additional observations from a re-analysis of the deposited data

How the results depend on the processing

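The log2 fold changes of the 5 rows stayed above 0 in every alternative tried. Mir330 moved to 0.33, Mir1933 to 1.01 and Mir8091 to 0.86 with a lane-number term, whose estimate rests on the pair of libraries with lane number 1. With 1 library left out, the ranges were 0.53 to 1.03 for Mir330, 1.11 to 1.25 for Mir1933, 0.79 to 1.17 for Mir5100, 0.66 to 1.06 for Mir3572 and 0.64 to 0.74 for Mir8091. The number of the 5 rows past both thresholds, 4 in the report, was 5 with upper-quartile factors or the replicate block, 4 with DESeq2's size factors, 2 with library size alone, 1 with no filter on low counts, 0 with a lane-number term, 1 with DESeq2's Wald test and 1 to 2 with a library left out. It was 0 with a mean of at least 50 counts, a filter that only Mir330 passed. Over all rows, 48 passed, 13 higher and 35 lower. With the replicate block 87 passed, 38 higher and 49 lower. Passing were 29 rows with a lane-number term, 8 higher and 21 lower, and 83 with no fold threshold, 30 higher and 53 lower. DESeq2's size factors gave 21 higher and 26 lower, upper-quartile factors 23 and 28, library size alone 4 and 42, and no filter 5 and 30. Leaving out a library gave 28 to 55 rows, 3 to 14 higher and 25 to 41 lower. Of the 10 rows named as most alike, 9 were named with a prior count of 0.5 too. Causes of these changes were not tested. The depth leaves 24 to 41 counts per control group behind each rare row.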
